A study of Mus musculus with 20 samples.

Results

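The 10 genes described here encode the ligands, receptors, contractile protein and collagen-crosslinking enzymes through which hepatic stellate cells are known to become collagen-producing myofibroblasts. They were Tgfb1, Tgfb2 and Tgfb3, the 3 ligands of the transforming growth factor beta family, Ctgf (current symbol Ccn2), Pdgfra and Pdgfrb, Acta2, and Lox, Loxl1 and Loxl2. Their probes were taken by gene name from the array annotation, but the 10 genes were chosen with earlier results of these data known. They had 16 of 41174 probes and made up 10 of 27573 gene names. All 10 passed the filter on dim probes and stood among 17526 genes tested. Lox passed it only through the LXR knockout mice on Western diet, and Tgfb2 only through the 2 knockout groups, so both had to be higher there. The other 8 were well above background on all 20 arrays.

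Each array measured liver RNA of 1 male mouse of a mixed Sv129/C57Bl6J background, aged 28 weeks, and all mice had been fed for 7 weeks. The 4 groups of 5 mice were LXR alpha/beta double knockout (LXR-/-) on Western diet, LXR-/- on normal chow, wild type on Western diet and wild type on normal chow. LXR alpha and beta are nuclear receptors for oxidised cholesterol, and the genotype label names no tissue or cell type to which their deletion was limited. RNA came from frozen fragments of the large liver lobe, in which hepatocytes outnumber stellate cells, and a higher signal in bulk RNA from more cells of a type cannot be told apart from more RNA per cell.

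Stellate cells lie between hepatocytes and the sinusoid, store vitamin A in their resting state, and on injury take up platelet-derived growth factor (PDGF) and TGF-beta signals. TGF-beta is secreted in a latent complex, is released from it, and acts through 2 receptor chains and SMAD proteins to induce collagen, Ctgf and Acta2. Lysyl oxidases then crosslink the collagen fibres. Macrophages, platelets, cholangiocytes and portal fibroblasts also make several of these factors, so none of the 10 is specific to the stellate cell.

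Values are log2 signal relative to the 75th percentile of the array, so that 0 is the level of that percentile, and differences are log2 differences ± SE with 5 mice per group. "Rose" and "fell" mean an adjusted p under 0.05 in limma with Benjamini-Hochberg adjustment over all genes. The 75th percentile itself was 332.2 to 431.9 intensity units on LXR-/- Western-diet arrays, 220.2 to 318.7 on LXR-/- normal-diet arrays, 258.6 to 326.7 on wild-type Western-diet arrays and 167.6 to 275.4 on wild-type normal-diet arrays. Between 53.5% and 67.1% of probes were well above background. The deleted gene Nr1h3, which encodes LXR alpha, lay between -5.41 and -3.71 in LXR-/- mice and between 3.86 and 4.70 in wild-type mice. Nr1h2, which encodes LXR beta, lay between -5.72 and -3.55 in LXR-/- mice and between 0.62 and 1.04 in wild-type mice. All 8 hepatocyte markers on the array were well above background in every group.

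RefSeq promoter sequences (250 bases before to 50 after a transcription start, build GRCm38.p6) were at hand for 4 of the 10 genes: Acta2, Tgfb1, Tgfb2 and Pdgfra. They are shown because a sequence was at hand, and no link of their motifs to the size of change was tested. Capitals mark matches, on either strand, to CAGAC (a SMAD motif), GGAATG (a TEAD motif) or the loose CArG box, which is CC and GG with any 6 bases between (after the element bound by serum response factor). Acta2 lies at chr19:34255324-34255623 on the minus strand, Tgfb1 at chr7:25686752-25687051 on the plus strand, Tgfb2 at chr1:186705940-186706239 on the minus strand and Pdgfra at chr5:75152001-75152300 on the plus strand.
Acta2: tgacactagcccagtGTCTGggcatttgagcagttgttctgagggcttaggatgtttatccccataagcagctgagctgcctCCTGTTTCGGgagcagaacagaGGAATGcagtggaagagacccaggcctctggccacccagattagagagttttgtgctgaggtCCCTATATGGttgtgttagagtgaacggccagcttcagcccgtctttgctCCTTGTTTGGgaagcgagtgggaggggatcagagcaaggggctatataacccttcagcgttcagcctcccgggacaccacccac
Tgfb1: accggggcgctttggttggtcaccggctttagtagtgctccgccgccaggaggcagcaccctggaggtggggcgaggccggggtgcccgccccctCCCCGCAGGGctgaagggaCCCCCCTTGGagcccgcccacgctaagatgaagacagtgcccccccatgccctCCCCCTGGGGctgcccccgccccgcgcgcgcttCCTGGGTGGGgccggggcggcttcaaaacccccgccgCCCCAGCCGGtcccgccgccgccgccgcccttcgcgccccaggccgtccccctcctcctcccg
Tgfb2: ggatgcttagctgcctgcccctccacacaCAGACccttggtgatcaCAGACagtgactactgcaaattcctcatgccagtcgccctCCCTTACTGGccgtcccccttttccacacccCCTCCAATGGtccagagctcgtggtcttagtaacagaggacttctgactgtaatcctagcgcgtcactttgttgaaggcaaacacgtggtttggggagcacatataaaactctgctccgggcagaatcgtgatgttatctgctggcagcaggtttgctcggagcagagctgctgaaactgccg
Pdgfra: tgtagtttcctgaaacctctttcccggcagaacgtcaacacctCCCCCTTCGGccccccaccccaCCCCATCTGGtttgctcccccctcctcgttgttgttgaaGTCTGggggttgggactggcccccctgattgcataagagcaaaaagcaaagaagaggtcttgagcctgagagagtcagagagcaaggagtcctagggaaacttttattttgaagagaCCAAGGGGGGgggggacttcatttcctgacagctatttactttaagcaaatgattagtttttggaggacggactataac
The Acta2 window held 3 loose CArG matches, which began 168, 84 and 34 bases before the start, a TEAD match at 146 bases and a SMAD motif on the minus strand at 235 bases. The Tgfb1 window held 5 loose CArG matches and none of the other motifs. The Tgfb2 window held 2 SMAD motifs, at 221 and 204 bases before the start, and 2 loose CArG matches. The Pdgfra window held a SMAD motif at 146 bases on the minus strand and 3 loose CArG matches. Among all 32851 promoters of that table, CAGAC was found in 49.6%, GGAATG in 14.7% and the loose CArG box in 73.3%, so each of these matches except the TEAD match is common. A strict LXR element of the direct-repeat type, AGGTCA repeated after any 4 bases, was in none of the 4 windows and in 0.0152% of all promoters.

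On Western diet all 10 genes rose in LXR-/- livers relative to wild-type livers. The share of all 17525 genes that rose in this comparison was 25%, and 57.7% of them changed in either direction. The median difference of the 10 was 2.53 and the range 0.64 to 4.86, against a median of -0.16 over all genes tested. In 9 of the 10, every LXR-/- mouse lay above every wild-type mouse, which held for 19.3% of all genes, and Acta2 was the exception. The 9 include Lox and Tgfb2, which passed the filter only through LXR-/- mice and so had to be higher there. Of the 8 genes well above background on all arrays, 8 rose, with a median of 2.44. With normexp background correction and an offset of 50, which pulls dim signals together by construction, all 10 stayed called but 7 differences were over 1.5 times smaller: Lox 0.75, Pdgfra 0.95, Tgfb1 1.01, Tgfb2 1.02, Loxl1 1.14, Tgfb3 1.17 and Loxl2 2.65.

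**Figure D1:**
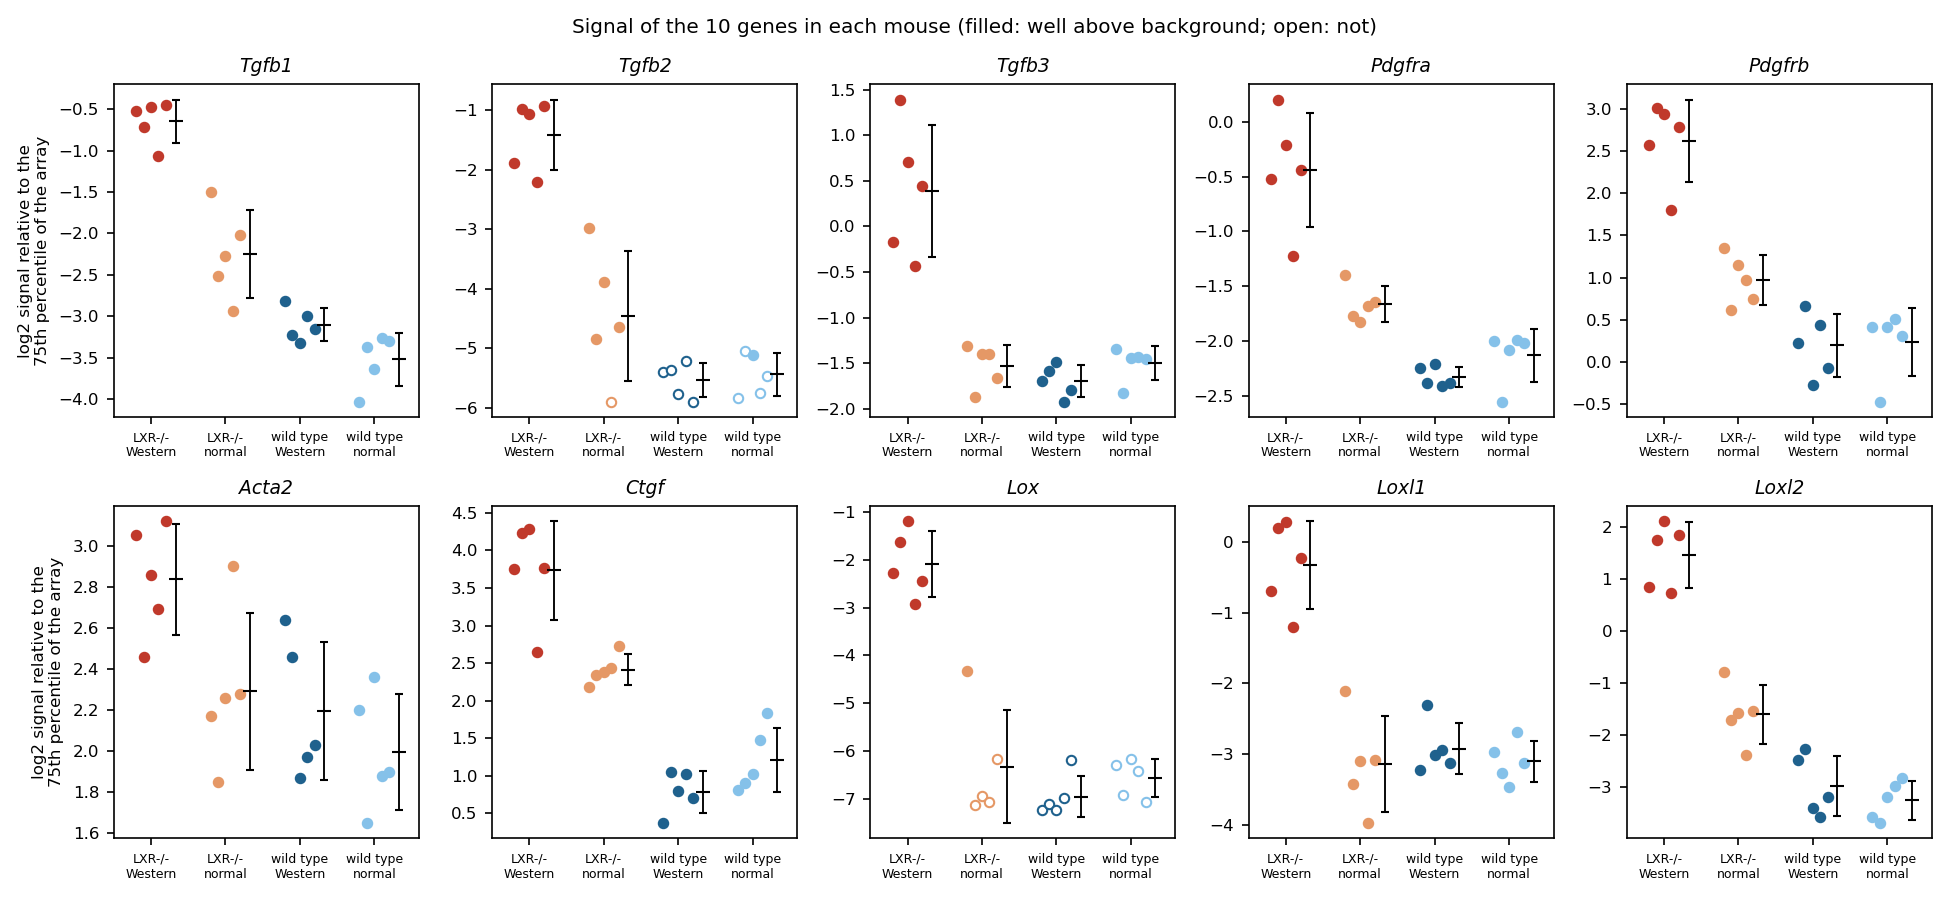
Log2 signal relative to the 75th percentile of the array (y axis, own scale per gene) in each of the 20 mice for the 10 genes. Points are mice, filled where the spot was well above background, and bars are the group mean with SD (n = 5). The LXR-/- Western-diet mice stand apart from the other 3 groups in 8 of the 10 panels. In Acta2 and Ctgf they overlap with LXR-/- mice on normal diet, and in Acta2 also with wild-type mice on Western diet.

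Tgfb1, the isoform with the broadest role in liver scarring, measured -0.52, -0.71, -0.47, -1.07 and -0.45 in LXR-/- mice on Western diet, against -2.81, -3.23, -3.32, -3.00 and -3.15 in wild-type mice on that diet. It measured -1.50, -2.51, -2.27, -2.93 and -2.02 in LXR-/- mice on normal diet, against -4.03, -3.37, -3.64, -3.26 and -3.30 in wild-type mice on normal diet. Knockout and wild-type mice did not overlap on either diet. The genotype difference was 2.45 ± 0.22 on Western diet (limma adjusted p = 3.18e-08) and 1.27 ± 0.22 on normal diet (adjusted p = 0.000401). Its probe (chr7:25413618-25413677, mm8) was printed as 10 spots per array, which gives a reading of error between spots within an array, not between arrays. The median SD among these spots was 0.117, below the SD between mice in each group (0.20 to 0.53).

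Tgfb2, an isoform known mainly from biliary and developing tissue, measured -1.89, -0.97, -1.06, -2.21 and -0.93 in LXR-/- mice on Western diet, against -5.40, -5.37, -5.77, -5.22 and -5.90 in wild-type mice on that diet. None of these wild-type spots was well above background, so the difference of 4.12 ± 0.40 (limma adjusted p = 9.1e-08) is also given as a bound. By group means Tgfb2 was at least 12.9-fold higher in LXR-/- livers. This bound sets the mean of the bright group against the dimmest signal still well above background on each wild-type array, or the spot itself where that was higher. It leaves out the spread between mice (95% interval of the difference 3.28 to 4.95). It also depends on the background correction, since normexp gave a log2 difference of 1.02. On normal diet Tgfb2 measured -2.98, -4.84, -3.89, -5.90 and -4.65 in LXR-/- mice, of which 4 were well above background, against -5.84, -5.04, -5.11, -5.75 and -5.47 in wild-type mice, of which 1 was. That difference of 0.99 ± 0.40 did not pass (limma adjusted p = 0.0882), and without LXR-/- normal-diet mouse 4 it was 1.35 (adjusted p = 0.00884).

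Tgfb3 measured -0.17, 1.39, 0.71, -0.43 and 0.44 in LXR-/- mice on Western diet, against -1.69, -1.58, -1.48, -1.92 and -1.79 in wild-type mice on that diet. On normal diet its lowest, median and highest values were -1.87, -1.40 and -1.31 in LXR-/- mice, against -1.82, -1.44 and -1.34 in wild-type mice. The genotype difference was 2.08 ± 0.24 on Western diet (limma adjusted p = 9.33e-07) and -0.03 ± 0.24 on normal diet (adjusted p = 0.942, 95% interval -0.54 to 0.48). Of the 3 isoforms, Tgfb1 was thus the only one that rose with the genotype on normal diet, and whether the isoforms differ in this was not tested.

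Ctgf, a matricellular protein that TGF-beta and the YAP-TEAD pathway induce, measured 3.75, 4.23, 4.28, 2.65 and 3.76 in LXR-/- mice on Western diet, against 0.37, 1.05, 0.80, 1.03 and 0.70 in wild-type mice on that diet. On normal diet it measured 2.18, 2.34, 2.38, 2.44 and 2.73 in LXR-/- mice, against 0.81, 0.91, 1.03, 1.48 and 1.83 in wild-type mice. The groups were apart on both diets, by 2.94 ± 0.26 on Western diet (limma adjusted p = 3.2e-08) and 1.20 ± 0.26 on normal diet (adjusted p = 0.00302). LXR-/- mouse 4 on Western diet, at 2.65, was the lowest of its group and lay within the range of LXR-/- mice on normal diet.

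Pdgfrb, the PDGF receptor of pericytes and stellate cells, measured 2.57, 3.01, 2.94, 1.80 and 2.78 in LXR-/- mice on Western diet, against 0.22, 0.66, -0.27, 0.44 and -0.07 in wild-type mice on that diet. On normal diet it measured 1.35, 0.62, 1.15, 0.97 and 0.75 in LXR-/- mice, against 0.42, -0.47, 0.42, 0.51 and 0.31 in wild-type mice. Neither diet showed an overlap between the genotypes. The difference was 2.43 ± 0.24 on Western diet (limma adjusted p = 1.43e-07) and 0.73 ± 0.24 on normal diet (adjusted p = 0.0413). The call on normal diet was close to the threshold. It was lost with slide, taken from the scan date, as a block (0.68, adjusted p = 0.0877). The call was also lost without LXR-/- normal-diet mouse 1, 3 or 4 (adjusted p = 0.113, 0.0888 and 0.0546) or wild-type normal-diet mouse 1, 2, 3 or 5 (0.0519, 0.113, 0.0524 and 0.0635). The difference ranged from 0.55 to 0.77 in those fits.

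Pdgfra, the receptor shared by PDGF-AA and PDGF-CC, measured -0.52, 0.20, -0.21, -1.22 and -0.44 in LXR-/- mice on Western diet, against -2.24, -2.38, -2.21, -2.41 and -2.38 in wild-type mice on that diet. The difference was 1.89 ± 0.19 (limma adjusted p = 1.3e-07). On normal diet its values were -1.82 to -1.40 in LXR-/- mice, against -2.55 to -1.99 in wild-type mice. These ranges did not overlap, yet the difference of 0.46 ± 0.19 did not pass (adjusted p = 0.091). It passed without LXR-/- Western-diet mouse 4, which enters this fit only through the shared estimate of spread (0.46, adjusted p = 0.0253). The probe (chr5:75479560-75479619, mm8) had 10 spots with a median SD of 0.088, and a dim further probe of Pdgfra was well above background on 1 array of each knockout group and on no wild-type array.

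Lox, which oxidises lysines of collagen and elastin, measured -2.28, -1.62, -1.19, -2.93 and -2.45 in LXR-/- mice on Western diet, against -7.23, -7.11, -7.23, -6.99 and -6.19 in wild-type mice on that diet. All 5 knockout spots and none of the wild-type spots were well above background. The measured difference was 4.86 ± 0.45 (limma adjusted p = 4.91e-08), and the bound by group means was at least 8.07-fold higher in LXR-/- livers. That bound has the same limits as the one for Tgfb2, and normexp gave a log2 difference of 0.75. On normal diet 1 of 5 LXR-/- mice, mouse 1 at -4.32, was well above background, and the other 4 lay between -7.12 and -6.17, against -7.06 to -6.16 in wild-type mice, none of them well above background. No fold is given for that diet.

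Loxl2, a lysyl oxidase found on collagen of scar tissue, measured 0.84, 1.75, 2.11, 0.73 and 1.85 in LXR-/- mice on Western diet, against -2.47, -2.26, -3.40, -3.57 and -3.18 in wild-type mice on that diet. On normal diet it measured -0.79, -1.71, -1.58, -2.38 and -1.53 in LXR-/- mice, against -3.58, -3.69, -3.18, -2.98 and -2.83 in wild-type mice. The genotypes were apart on both diets, by 4.43 ± 0.33 on Western diet (limma adjusted p = 3.95e-09) and 1.65 ± 0.33 on normal diet (adjusted p = 0.00151). With normexp the difference on normal diet was 0.56 and was not called (adjusted p = 0.0634). Its dimmer second probe (chr14:68427414-68427473, mm8, against chr14:68430527-68430586 for the brighter) was well above background on 5 Western-diet and 4 normal-diet arrays of LXR-/- mice, against 1 of 5 arrays in each wild-type group. It measured -2.71 to -1.16 in LXR-/- mice on Western diet, against -7.05 to -4.83 in wild-type mice on that diet, and no exact difference is given for it.

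Loxl1, the paralogue linked to elastic fibres, measured -0.69, 0.20, 0.29, -1.20 and -0.22 in LXR-/- mice on Western diet, against -3.23, -2.31, -3.01, -2.94 and -3.13 in wild-type mice on that diet. On normal diet its range was -3.98 to -2.11 in LXR-/- mice, against -3.46 to -2.69 in wild-type mice. The genotype difference was 2.60 ± 0.31 on Western diet (limma adjusted p = 1.23e-06) and -0.04 ± 0.31 on normal diet (adjusted p = 0.95, 95% interval -0.69 to 0.62).

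Acta2, the smooth muscle actin by which activated stellate cells are usually recognised, had a difference below those of the other 9, though with normexp Lox (0.75) was below it (0.79). Its brightest probe measured 3.05, 2.46, 2.86, 2.69 and 3.12 in LXR-/- mice on Western diet, against 2.64, 2.46, 1.87, 1.97 and 2.03 in wild-type mice on that diet. The lowest knockout mouse lay within the wild-type range, and the difference was 0.64 ± 0.20 (limma adjusted p = 0.01). On normal diet the range was 1.85 to 2.90 in LXR-/- mice, against 1.65 to 2.36 in wild-type mice, and the difference of 0.29 ± 0.20 did not pass (adjusted p = 0.324).

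The 5 probes of Acta2 did not give the same size of change. The brightest was listed over 3255 bases (chr19:34314502-34317756, mm8), against 59 or 60 for the other 4, so by these positions it spans a splice junction. A second probe (chr19:34307567-34307626, mm8) had 10 spots on each array with a median spot SD of 0.0785. It measured 0.19, 0.94, 1.86, 0.59 and 1.64 in LXR-/- mice on Western diet, against -0.57, -0.90, -0.21, -0.78 and -0.99 in wild-type mice on that diet. Here the genotypes did not overlap, and the difference was 1.73 ± 0.32 (limma fit over all probes, adjusted p = 0.00013). On normal diet the same probe measured 0.11, -1.04, -0.38, 0.19 and -0.03 in LXR-/- mice, against -0.57, 0.66, 0.13, -0.53 and 0.03 in wild-type mice (difference -0.17 ± 0.32, adjusted p = 0.74). The other 3 probes were well above background on at most 2 arrays of either wild-type group, and no difference is given for them. Why the probes differ was not tested.

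**Figure D2:**
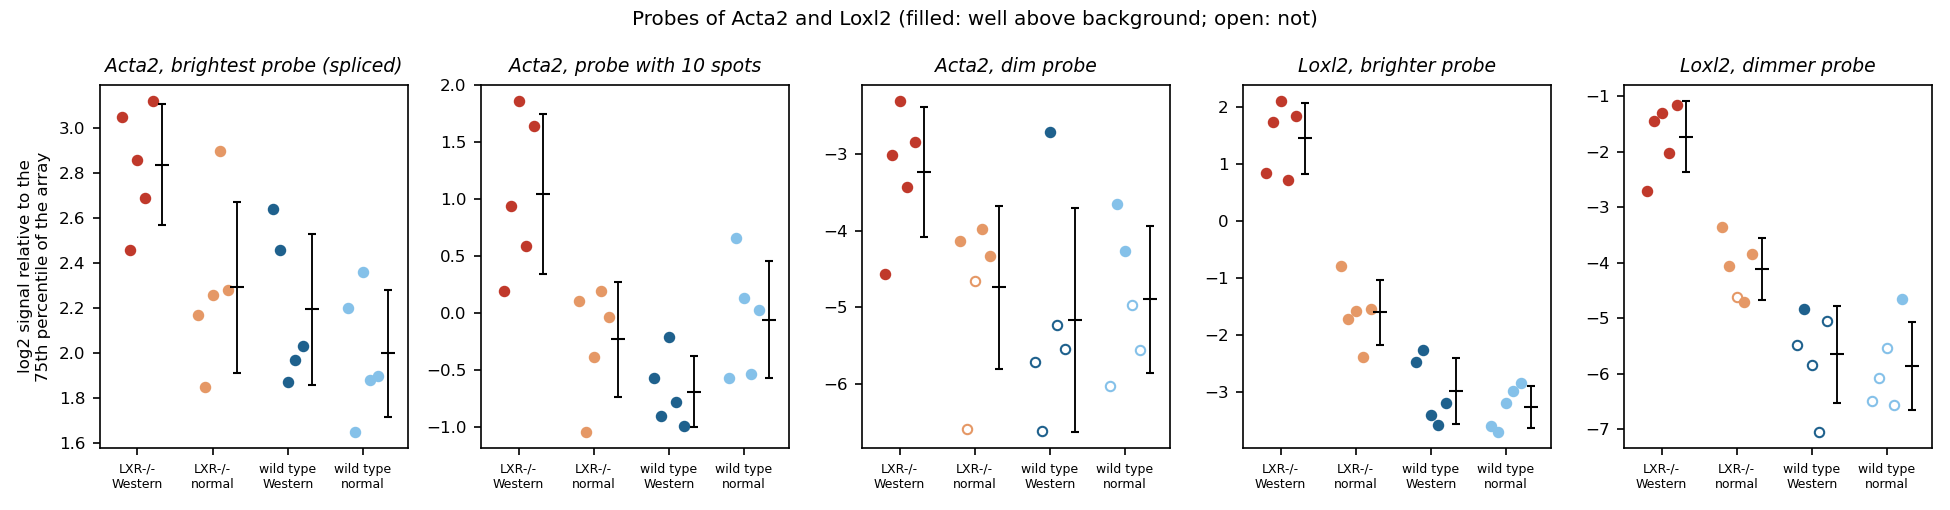
Log2 signal relative to the 75th percentile of the array (y axis, own scale per probe) for 3 probes of Acta2 and both probes of Loxl2 in each mouse. Filled points are well above background, and bars are mean with SD (n = 5). The genotypes on Western diet overlap on the brightest Acta2 probe and are apart on the probe with 10 spots, while on both Loxl2 probes LXR-/- mice on Western diet lie above every wild-type mouse.

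On normal diet 4 of the 10 genes rose in LXR-/- livers (Tgfb1, Ctgf, Pdgfrb and Loxl2) and none fell. Of all genes 11.2% rose in this comparison, and 19.9% changed. The median difference of the 10 was 0.60, against -0.07 over all genes. With normexp 3 of the 10 were called, Loxl2 being lost, and Tgfb1 differed by 0.36. Every LXR-/- mouse lay above every wild-type mouse in 5 of the 10 (the 4 above and Pdgfra), which held for 8.05% of all genes.

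Western diet relative to normal diet raised all 10 genes in LXR-/- livers. Of all genes 22.8% rose in that comparison, and 50.4% changed. The median difference was 1.78, with a range of 0.54 to 4.24, against -0.11 over all genes. Mice on the 2 diets did not overlap in 8 of the 10, which held for 16.3% of all genes, and they did in Acta2 and Ctgf. The 8 include Lox, which passed the filter only through the Western-diet mice and so had to be higher there. Of the 8 genes well above background on all arrays, 8 rose, with a median of 1.63. Lox differed by 4.24 ± 0.45 (limma adjusted p = 4.08e-07), but only 1 of the 5 normal-diet spots was well above background, and with signals raised to the lowest level well above background on each array the difference was 2.78. Loxl2 rose by 3.06 ± 0.33 (adjusted p = 5.11e-07), Tgfb2 by 3.04 ± 0.40 (adjusted p = 4.93e-06) and Loxl1 by 2.81 ± 0.31 (adjusted p = 7.27e-07). Tgfb3 rose by 1.92 ± 0.24, Pdgfrb by 1.65 ± 0.24, Tgfb1 by 1.60 ± 0.22, Ctgf by 1.32 ± 0.26 and Pdgfra by 1.23 ± 0.19. With normexp all 10 stayed called, and Loxl1 (1.21), Tgfb3 (1.15), Tgfb2 (0.90), Tgfb1 (0.77), Pdgfra (0.72) and Lox (0.70) had differences over 1.5 times smaller. Acta2 rose by 0.54 ± 0.20 (adjusted p = 0.0292), a call lost without LXR-/- Western-diet mouse 1, 3 or 5 (adjusted p = 0.0662, 0.0523 and 0.0743) or normal-diet mouse 1, 2 or 3 (0.0565, 0.0892 and 0.0512). The Acta2 probe with 10 spots rose by 1.27 ± 0.32 (adjusted p = 0.00258). Both comparisons of the LXR-/- Western-diet group use the same 5 mice.

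In wild-type livers Western diet changed none of the 10 genes by limma, and 0 of 10 had an unadjusted p under 0.05. Of all genes 6.03% changed in that comparison, and 3.25% rose. Mice on the 2 diets overlapped in all 10, and over all genes they were apart in 8.27%. With shares this low over all genes, counts of 0 among 10 say nothing particular about these genes. The differences ran from -0.42 ± 0.26 (Ctgf, adjusted p = 0.398) to 0.42 ± 0.22 (Tgfb1, adjusted p = 0.294). The 95% intervals of the 10 reached from -1.32 to 0.96, and the rise measured in LXR-/- livers lay above the wild-type interval in 9 of the 10, such as Tgfb1 (-0.04 to 0.88), Tgfb3 (-0.71 to 0.32) and Loxl2 (-0.42 to 0.96). Acta2 was the exception (-0.22 to 0.61).

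The diet difference was larger in LXR-/- than in wild-type livers for 9 of the 10 genes, tested as the genotype by diet interaction. Of all genes 13% had a positive interaction past the threshold, and 27.6% had one of either sign. The median interaction of the 10 was 1.92, against -0.07 over all genes. Over the 8 genes well above background on all arrays, 7 passed and the median was 1.72. The interaction was 2.78 ± 0.46 for Loxl2 (limma adjusted p = 0.000253), 2.63 ± 0.44 for Loxl1 (adjusted p = 0.000264) and 2.11 ± 0.35 for Tgfb3 (adjusted p = 0.000211). With normexp background correction the same 9 were called, but 6 interactions were over 1.5 times smaller (Loxl1 1.13, Tgfb3 1.20, Tgfb2 0.90, Pdgfra 0.78, Lox 0.70 and Tgfb1 0.65), so the genes have no firm order of size. Tgfb1, which also rose with genotype on normal diet, had an interaction of 1.18 ± 0.31 (adjusted p = 0.00765), a call lost with median scaling (1.12, adjusted p = 0.0619). Acta2 did not pass on its brightest probe (0.35 ± 0.28, adjusted p = 0.407) and did on the probe with 10 spots (1.90 ± 0.45, adjusted p = 0.0041).

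**Figure D3:**
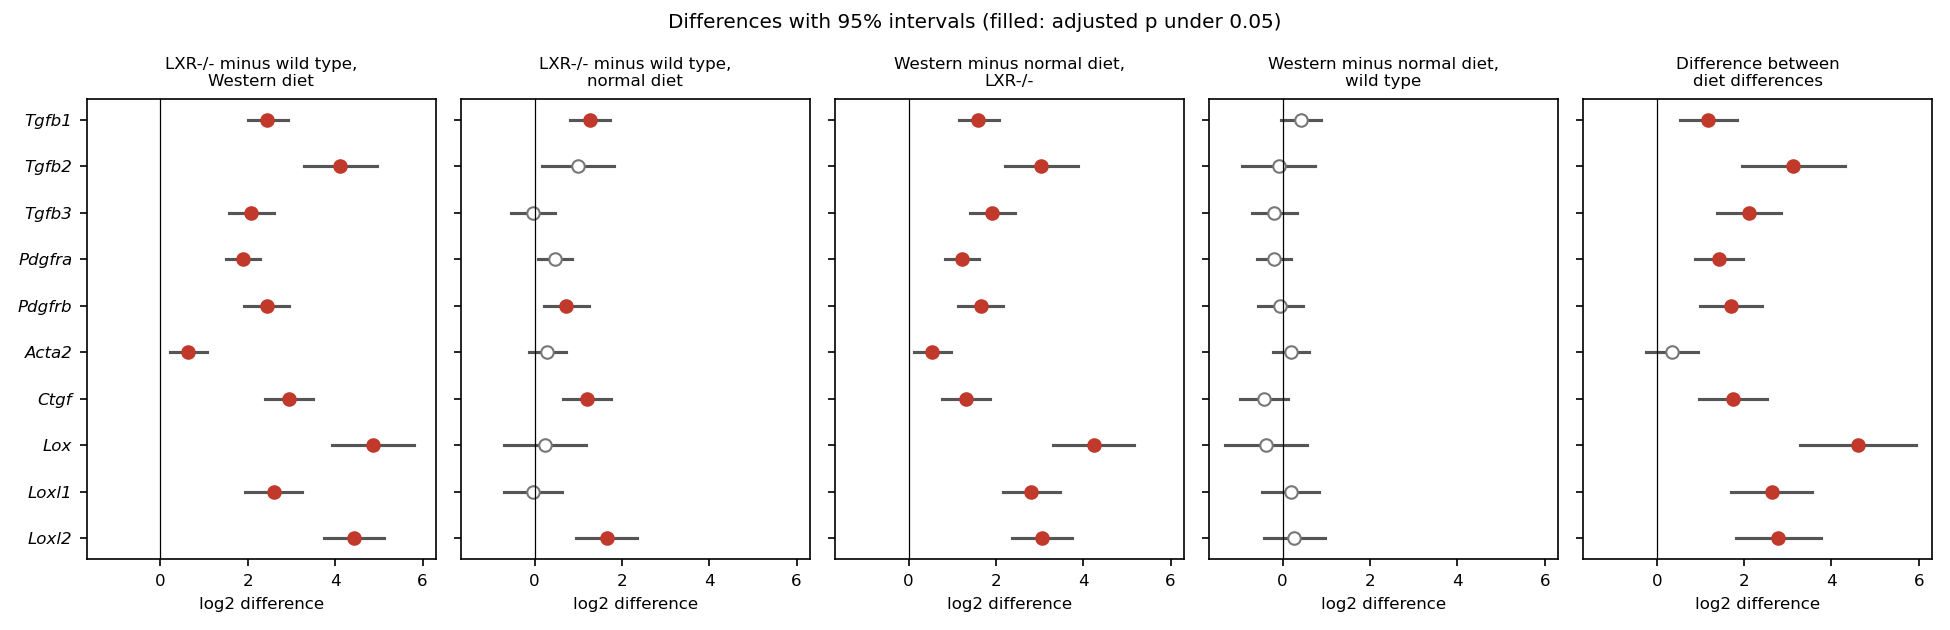
Log2 differences of the 10 genes (x axis) with 95% intervals (lines) in the 4 comparisons and the interaction, filled where the adjusted p was under 0.05. The intervals on Western diet and for diet in LXR-/- livers all lie above 0, and in wild-type livers all 10 include 0.

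The levels of 9 of the 10 genes followed 1 of 2 patterns over the groups. In each of the 10 genes the LXR-/- Western-diet group was highest and differed from the other 3 groups. Tgfb1, Ctgf, Pdgfrb, Pdgfra and Loxl2 had LXR-/- mice on normal diet in second place, and these exceeded wild-type mice on Western diet by 0.66 ± 0.19 (Pdgfra, limma adjusted p = 0.0147) to 1.62 ± 0.26 (Ctgf, adjusted p = 0.000187). Relative to wild-type mice on normal diet, Pdgfra did not pass (0.46 ± 0.19, limma adjusted p = 0.091). The calls of Pdgfrb and Loxl2 in that comparison depended on the processing, so the line between the 2 patterns is not firm. In Tgfb3, Loxl1, Lox and Acta2 the 3 lower groups did not differ beyond their spread in any comparison. Tgfb2 lay between these patterns (LXR-/- on normal diet minus wild type on Western diet 1.08 ± 0.40, adjusted p = 0.0535). The 2 wild-type groups did not differ beyond their spread in any of the 10.

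Arrays with the same scan date in the file headers were taken as 1 slide, and no slide label was used. Each group lay on 5 of the 6 slides so defined, and values were also taken within slides that held both groups compared. Within 4 such slides the genotype difference on Western diet was positive for all 10 genes, from 0.40 for Acta2 to 5.93 for Lox, and with slide as a block it was 0.65 to 4.89, with all 10 called. For diet in LXR-/- livers, 9 of 10 genes were positive on all 5 slides, and Acta2 ranged from -0.21 to 0.87. For genotype on normal diet, Tgfb1 ranged from 0.71 to 1.52 over 4 slides, Ctgf from 1.25 to 1.53, Loxl2 from 0.79 to 2.11 and Pdgfrb from 0.20 to 1.62. With slide as a block 3 of the 10 were called there, since Pdgfrb was lost. For diet in wild-type livers Tgfb1 ranged from 0.14 to 0.32 over 4 slides, and none of the 10 was called with the block. The interaction was called for 9 of the 10 with the block.

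Most of the 10 genes deviated together in some single mice. LXR-/- mouse 4 on Western diet was the lowest of its group in 9 of the 10 genes, with Acta2 the exception. LXR-/- mouse 1 on normal diet was the highest of its group in 8 of the 10, with Ctgf and Acta2 the exceptions. Wild-type mouse 2 on normal diet was the lowest of its group in 5 of the 10. The summed signal of 10 macrophage markers was 341 in LXR-/- mouse 4 on Western diet, within the group's range of 338 to 425, and 98.3 in LXR-/- mouse 1 on normal diet, the top of a range of 21.6 to 98.3. The 75th percentile of those arrays was 355.7 and 284.8 intensity units, inside their groups' ranges. What part macrophage number plays in these values was not tested.

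**Figure D4:**
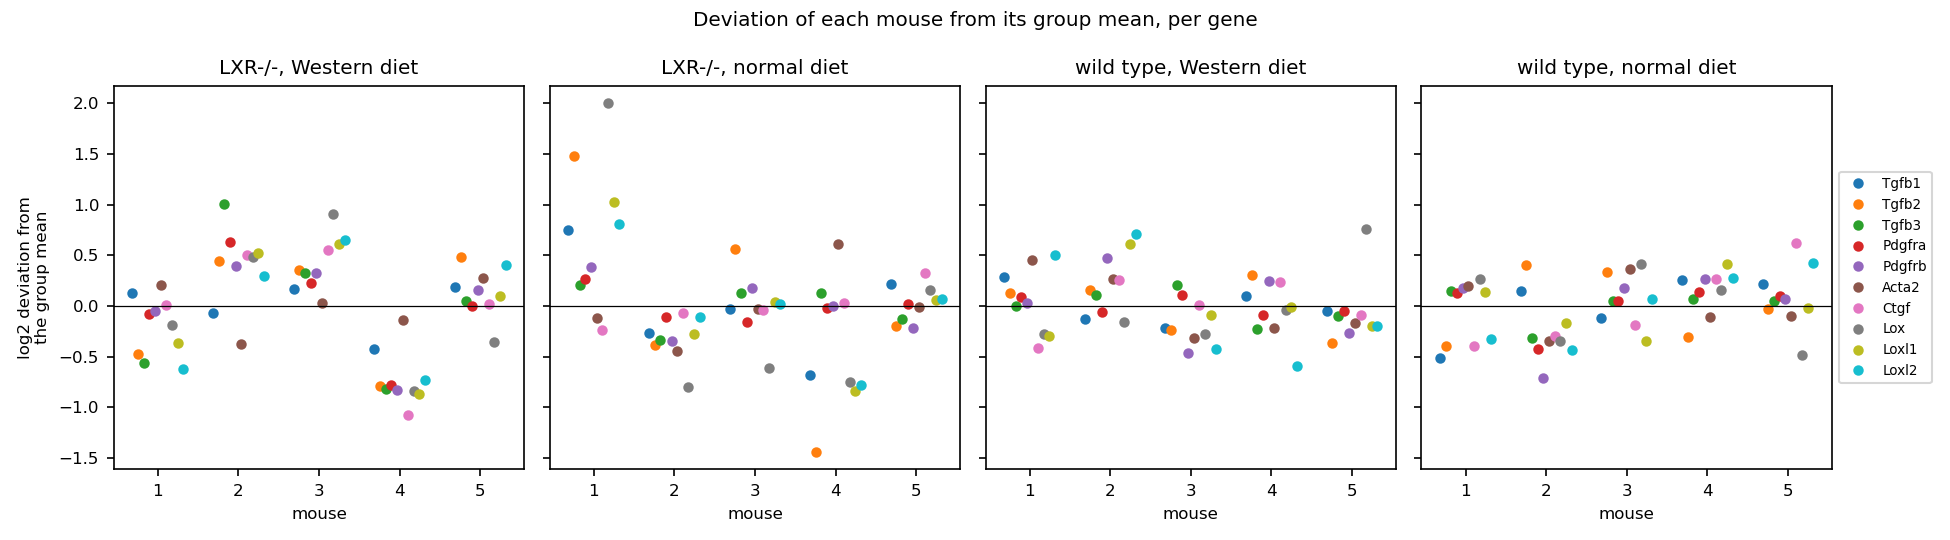
Deviation of each mouse from its group mean (y axis, log2) for the 10 genes, by mouse number (x axis) in the 4 groups. In LXR-/- mouse 4 on Western diet all 10 points lie below 0, and in LXR-/- mouse 1 on normal diet 8 points lie above 0.

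The other genes of the pathway were taken from lists written with earlier results of these data known. Downstream of the 3 ligands, Tgfbr1, the kinase chain of the TGF-beta receptor, rose on Western diet by 1.05 ± 0.13 (limma adjusted p = 1.9e-06), and Tgfbr2, the chain that binds the ligand, by 1.87 ± 0.26 (adjusted p = 6.84e-06). On normal diet Tgfbr2 rose by 1.06 ± 0.26 (adjusted p = 0.00705). Of the 16 tested genes for receptors and SMADs, 5 rose and 1 fell on Western diet in LXR-/- livers, with a median of 0.23. Over all genes 25% rose, which is near the share of this list, and 32.7% fell. Ski, a repressor of SMAD signalling, was among those that rose (0.78 ± 0.16), and Smurf2, a ubiquitin ligase of the receptor, was the one that fell (-0.75 ± 0.15). The receptor chain Tgfbr3 did not pass the filter and was not tested.

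Of 14 tested genes that hold TGF-beta in its latent form or release it, 9 rose and 1 fell on Western diet in LXR-/- livers, with a median of 1.63. Over all genes 25% rose and 32.7% fell. Thbs1, thrombospondin 1, which can release active TGF-beta, rose by 5.40 ± 0.45 (limma adjusted p = 1.62e-08) from spots that were well above background in 2 of 5 wild-type mice on that diet. It passed the filter only through LXR-/- mice on Western diet, so it had to be higher there, and the size of its difference is not firm. The latent TGF-beta binding proteins Ltbp2 and Ltbp3 rose by 4.35 ± 0.45 and 3.25 ± 0.21, and Fbn1, the fibrillin that anchors them, by 3.41 ± 0.36. Of 14 genes known to be induced by TGF-beta, 11 rose on Western diet in LXR-/- livers and 0 fell, with a median of 1.36. Postn, periostin, rose by 3.32 ± 0.29 (adjusted p = 3.04e-08) and on normal diet by 1.66 ± 0.29. Id1 rose by 2.85 ± 0.36.

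All 4 PDGF ligands rose on Western diet in LXR-/- livers, as did 25% of all genes. Pdgfa rose by 2.11 ± 0.21 (limma adjusted p = 1.42e-07), Pdgfb by 2.06 ± 0.52 (adjusted p = 0.00239), Pdgfc by 1.09 ± 0.28 (adjusted p = 0.00308) and Pdgfd by 1.59 ± 0.50 (adjusted p = 0.0114). Pdgfb was well above background in 2 of 5 and Pdgfd in 1 of 5 wild-type mice on that diet. Both passed the filter only through the LXR-/- Western-diet mice, so both had to be higher there. On normal diet none of the 4 rose, and Pdgfc fell by 0.87 on the log2 scale (SE 0.28, adjusted p = 0.0363), while its interaction was 1.96 ± 0.40 (adjusted p = 0.00137).

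Around Ctgf, 5 of 8 tested genes of the CCN family and of the YAP-TEAD targets rose and 1 fell on Western diet in LXR-/- livers, with a median of 1.20. Over all genes 25% rose and 32.7% fell. Ccn5, another matricellular CCN protein, rose by 4.27 ± 0.56 (well above background in 2 of 5 wild-type mice), Ankrd1 by 3.39 ± 0.40, Ajuba by 2.00 ± 0.16 and the receptor kinase Axl by 1.77 ± 0.28. Ccn5 passed the filter only through LXR-/- mice on Western diet, so it had to be higher there, and the size of its difference is not firm. On normal diet 2 of the 8 rose, Ankrd1 (1.34 ± 0.40) and Axl (1.47 ± 0.28), and 1 fell, the CCN protein Ccn4 (-0.88 ± 0.24, limma adjusted p = 0.0159, named after its value was seen). Over all genes 11.2% rose and 8.71% fell on that diet.

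Around the lysyl oxidases, 11 of 13 tested substrates and fibre-assembly genes rose (25% over all genes) and 0 fell (32.7% over all genes) on Western diet in LXR-/- livers, with a median of 2.14. The largest were Col1a1 (5.36 ± 0.47), Col5a2 (4.07 ± 0.32), Col1a2 (3.98 ± 0.34) and Col3a1 (3.86 ± 0.36), the fibrillar collagens that lysyl oxidases crosslink. On normal diet none of these 4 collagens passed and Loxl2 did, a contrast that was not itself tested. Of 8 other crosslinking and collagen-modifying enzymes, 3 rose and 2 fell on Western diet, with a median of -0.02, against the same shares over all genes. Plod2, the lysyl hydroxylase of telopeptides, rose by 3.16 ± 0.25. Loxl3 was at least 2.33-fold higher by group means (limma adjusted p = 0.000295), with no wild-type spot well above background on that diet. It passed the filter only through LXR-/- mice on Western diet, so it had to be higher there. Plod1 fell by 1.65 on the log2 scale (SE 0.18) and P4ha2, a prolyl hydroxylase, fell by 1.10 (SE 0.22).

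Around Acta2, 6 of 15 contractile and cytoskeletal genes rose (25% over all genes) and 2 fell (32.7% over all genes) on Western diet in LXR-/- livers, with a median of 0.40. Vim, vimentin, rose by 4.72 ± 0.22, Actg1, cytoplasmic gamma actin, by 2.10 ± 0.17, Des, desmin, by 1.36 ± 0.20 and Tagln by 1.20 ± 0.26. Of 5 smooth muscle genes, Smtn rose by 1.07 ± 0.18 and Myh11, smooth muscle myosin, fell by 0.64 on the log2 scale (SE 0.25), and the other 3 did not pass.

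**Figure D5:**
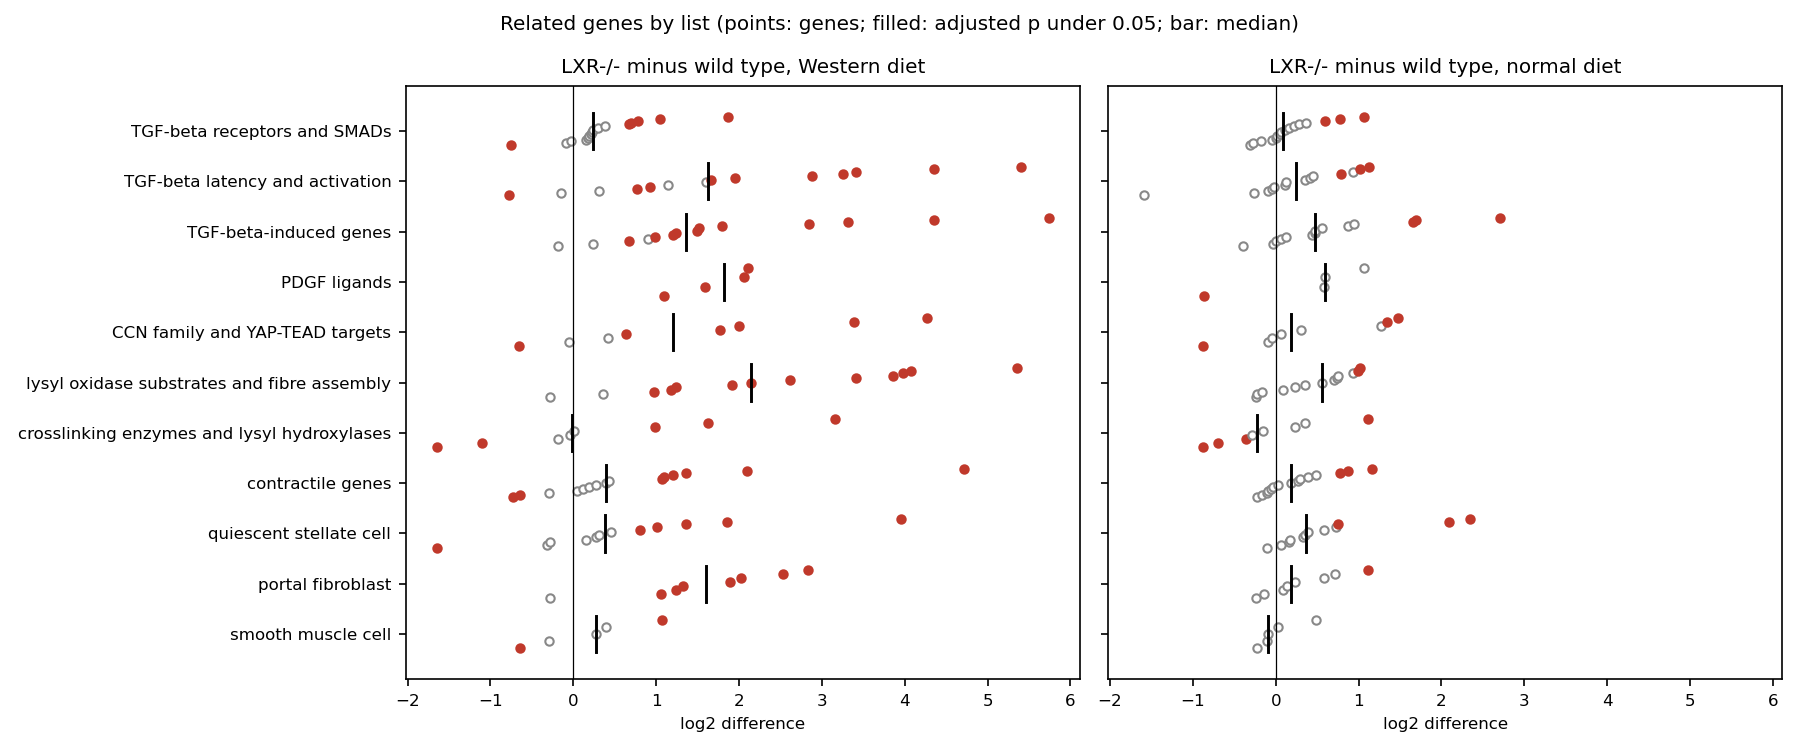
Log2 differences between LXR-/- and wild-type livers (x axis) for related genes in 11 lists, on Western diet (left) and normal diet (right). Points are genes, filled where the adjusted p was under 0.05, and bars are list medians. Fibre-assembly genes and PDGF ligands have medians of 2.14 and 1.82 on Western diet, while smooth muscle genes have a median of 0.27 and crosslinking enzymes one of -0.02. Pdgfb and Pdgfd passed the filter only through LXR-/- mice on Western diet.

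Markers of several cell types moved with these genes. Counts of markers stand against 25% of all genes that rose and 32.7% that fell on Western diet in LXR-/- livers. On Western diet, of 12 markers of resting stellate cells on the array, 5 were higher and 1 was lower in LXR-/- mice. Their summed signal was 62.5 to 153, against 33.8 to 92.5 in wild-type mice, but these ranges cannot be compared. A missing value counted as 0 in every such sum. Dcn, a bright marker, was well above background on only 3 of 5 LXR-/- and 1 of 5 wild-type arrays and lacked values on others. Dcn itself differed by 0.31 ± 0.45 (limma adjusted p = 0.583). Rgs5, a pericyte gene, rose by 1.85 ± 0.29, and Ngfr fell by 1.65 on the log2 scale (SE 0.24). Lrat, the vitamin A-storing enzyme of stellate cells, differed by 0.15 ± 0.32 (adjusted p = 0.701, named after its value was seen). Portal fibroblast markers summed to 54.2 to 83.8 in LXR-/- mice, against 10.9 to 21 in wild-type mice, with 7 of 8 higher, among them Entpd2 (2.83 ± 0.25) and Cd34 (2.53 ± 0.31). Their summed level did not overlap between genotypes.

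Macrophage markers summed to 338 to 425 in LXR-/- mice on Western diet, against 33.3 to 99.5 in wild-type mice on that diet, with 7 of 10 higher and 1 lower. Itgam was at least 23.7-fold higher by group means (limma adjusted p = 4.61e-08), with no spot well above background in those wild-type mice. Itgam passed the filter only through the knockout groups, so it had to be higher there. Cd14 rose by 5.29 ± 0.48 and Cd68 by 4.68 ± 0.35, while Clec4f, a marker of resident Kupffer cells, fell by 8.10 on the log2 scale (SE 0.84). Cholangiocyte markers summed to 150 to 213 in LXR-/- mice, against 34 to 151 in wild-type mice, with 6 of 6 higher. Of these, Cftr was well above background on no array of the other groups. Cftr passed the filter only through LXR-/- mice on Western diet, so it had to be higher there. The 151 was wild-type mouse 2, and the other 4 lay at 34 to 39.9. Of 4 platelet markers tested, 1 was higher and 1 lower, and of 8 endothelial markers 2 were higher and 1 lower. Of 7 T and B lymphocyte markers, 1 was higher and 2 were lower. Beside the shares over all genes, the platelet, endothelial and lymphocyte counts say nothing particular about those cells. Hepatocyte markers summed to 541 to 641 in LXR-/- mice, against 716 to 911 in wild-type mice, with 6 of 8 lower. The part of these cell types in the values of the 10 genes was not tested.

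The genes whose pattern over the 20 arrays lay nearest to Lox, Loxl2 and Tgfb2, the 3 with the widest spread of group means, were found by the root-mean-square distance between centred profiles over 17005 genes. Lox was well above background on 6 of the 20 arrays and Tgfb2 on 10, so many of their values came from dim spots. With normexp their differences on Western diet were 0.75 and 1.02, below Ctgf at 2.84. The choice of these 3 genes thus depends on the background correction. Nearest to Lox were Ch25h (0.58), Gpr183 (0.60) and BC016579 (0.61). Nearest to Loxl2 were Panx1 (0.38), Rgs10 (0.40) and Vim (0.41), and nearest to Tgfb2 were Rgs10 (0.39), P2ry6 (0.41) and Fstl1 (0.41). Ch25h encodes cholesterol 25-hydroxylase, and Gpr183 encodes a receptor for hydroxylated cholesterol.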

How the data were processed

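The deposited per-array values were used as intensity, per the file headers the processed Cy3 signal of Agilent Feature Extraction 9.5.3.1, background-subtracted and detrended within the array, with annotation on mm8. The submitters' processing notes name Feature Extraction 9.5 and limma. The deposited table of log2 values (24493 of 41174 probes) served as an alternative. Set against the scanner values it had r of 0.9753 to 0.9838 across genes, with column medians of 7.734 to 7.783. The arrays have 1 colour, so no direction applies, and it is not centred by gene. How its probes were chosen stays unknown.

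Control spots (1639) and 105 to 270 outlier spots per array were left out, log2 signal was set relative to the 75th percentile of the array, and spots were averaged per probe. The brightest probe stood for a gene. The filter asked for a spot well above background on 4 or more of the 5 arrays in 1 or more groups. limma 3.58.1 in R 4.3.3 fitted 4 group means in 1 model (16 residual degrees of freedom), with Benjamini-Hochberg adjustment per comparison. The replicates were different mice, and the number of arrays limits the precision.

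The 10 genes, the 17 lists of other genes and the naming rule were chosen with earlier results of these data known. The rule named the 10 genes, the deleted genes, PDGF ligands, TGF-beta receptors, up to 4 called genes per list with the largest differences, and the 3 nearest profiles of 3 genes. Some genes it allowed are not reported here. Replicate numbers did not pair mice: over 30 same-numbered pairs of different groups, r of deviations was -0.40 to 0.49, with a median of 0.01 (0.36 for 25 pairs on the same slide). Alternatives were median and quantile scaling, normexp correction (offset 50), the log2 table, stricter and looser filters, the mean of probes, slide or replicate number as a block, fits of 2 groups, and fits without each mouse. The fit was tested on simulated data. Figures used Python 3.11.15 and matplotlib 3.10.9.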

Additional observations from a re-analysis of the deposited data

Results flagged for a closer look

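A sample far from the others of its group was looked for in 40 sets of 5 mice (10 genes in 4 groups), and chance gives such a result in about 1 of 20 sets. It was found in 4. Wild-type mouse 2 on normal diet was low in Tgfb3 (-1.82, the others -1.45 to -1.34), in Pdgfra (-2.55, the others -2.08 to -1.99) and in Pdgfrb (-0.47, the others 0.31 to 0.51). Wild-type mouse 5 on Western diet was high in Lox (-6.19, the others -7.23 to -6.99), where none of the 5 spots was well above background.

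The diet difference differed between the genotypes, by the interaction test, for 9 of the 10 genes. The interaction was 1.18 for Tgfb1, 3.13 for Tgfb2, 2.11 for Tgfb3, 1.42 for Pdgfra, 1.70 for Pdgfrb, 4.62 for Lox, 2.63 for Loxl1, 2.78 for Loxl2 and 1.74 for Ctgf, all on the log2 scale and all with a larger diet difference in LXR-/- livers. None of the wild-type spots of Lox was well above background, and of Tgfb2 only 1 was, on normal diet. With signals raised to the lowest level well above background on each array, their interactions were 3.11 and 3.19.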

How the results depend on the processing

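Of 1480 values of the 10 genes under the alternatives, 1435 kept their direction and side of the threshold, 22 lost their call, 3 gained one and 20 changed sign, all of the 20 among values never called. Median scaling lowered the genes changed by diet in wild-type livers to 556, against 1057, and the interaction to 3216, against 4836, and moved the median of all genes on Western diet to -0.26, against -0.16. Under it Acta2 on Western diet (0.53, adjusted p = 0.0617), Acta2 by diet in LXR-/- livers (0.59, 0.0507), Pdgfrb on normal diet (0.68, 0.141) and the Tgfb1 interaction (1.12, 0.0619) were not called. Among called genes 66.2% then rose with diet in wild-type livers, against 53.8%. With normexp background correction 55.8% rose with diet in LXR-/- livers, against 45.3%, and 57.1% had a positive interaction, against 47%. Loxl2 on normal diet was then not called (0.56, 0.0634). The causes were not tested. Pdgfrb on normal diet was not called without the filter on dim probes (0.73, 0.0658) or with the replicate block (0.73, 0.0714), under which the other 9 genes kept their calls. With all probes averaged, Acta2 by diet in LXR-/- livers was not called (0.50, 0.075). Pdgfra on normal diet was called with only the groups compared (0.46, 0.0443). Signs changed for Loxl1 on normal diet (normexp 0.02) and, for diet in wild-type livers, for Tgfb2 (median scaling 0.02, quantile 0.05, normexp 0), Pdgfrb (median scaling 0.06), Lox (normexp 0) and Acta2 (mean of probes -0.32). Leaving out each mouse gave 9418 to 10357 genes changed by genotype on Western diet, 2551 to 4194 on normal diet, 7958 to 9075 by diet in LXR-/- livers, 671 to 1135 by diet in wild-type livers (671 without wild-type Western-diet mouse 2 and 692 without mouse 1) and 3975 to 5232 for the interaction. Of the 10 genes 10 to 10, 3 to 5, 9 to 10, 0 to 0 and 9 to 9 were called in these fits. Uncalled differences that changed sign ran, over these fits, from -0.11 to 0.05 (Tgfb3), -0.26 to 0.44 (Lox) and -0.29 to 0.18 (Loxl1) on normal diet, and from -0.19 to 0.01 (Tgfb2) and -0.22 to 0.07 (Pdgfrb) for diet in wild-type livers.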
